A study of Homo sapiens with 6 samples.

Results

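The DEAD box and DEAH box RNA helicases were followed in KYSE410 cells, a human line of oesophageal squamous carcinoma, with and without knockdown of ADAR1. They were taken as the protein-coding genes named DDX or DHX with a number and at most 1 letter, without the RNA sensor genes DDX58, DHX58, DDX60 and DDX60L. This gave 51 of the 58735 genes in the deposited table, 36 named DDX and 15 named DHX. The 3 control libraries are titled NC and labelled wild type and untreated, without a statement that a control siRNA was given, so siRNA delivery and ADAR1 loss cannot be told apart. The 3 siADAR1 libraries come from the same line with ADAR1, the enzyme that turns adenosine into inosine in double-stranded RNA, knocked down. Each library is polyadenylated RNA of one sample, and the labels do not say whether the 3 samples of a group were separate cultures. The p-values then reflect no more than the scatter among these 6 samples, which may be technical.

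DEAD and DEAH box proteins use ATP to open RNA duplexes or to strip proteins from RNA. They are named in one-letter amino acid code after a motif of their ATPase core, Asp-Glu-Ala-Asp (DEAD) or Asp-Glu-Ala-His (DEAH). DEAD box proteins pry apart short duplexes locally, whereas DEAH box proteins translocate along a strand. Between them they act at nearly each step in the life of an RNA: splicing, export, ribosome assembly, translation and decay.

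The stretch of coding sequence that names the family is shown for members the results turn on, with 4 codons on each side of the motif. Sequence came from GENCODE release 29 transcripts on GRCh38, 5′ to 3′ on the coding strand, and the capitals mark the 4 motif codons. Each window lies within a single exon. DDX21 and DDX50, a pair of neighbouring genes, are shown because they moved apart, DDX3X and DHX9 because they had the largest falls in CPM beside DDX21, and DDX19A and DDX19B because they are a pair of near copies. DDX11 is shown for a motif that goes against its name, and DHX37 as a member that spells DEAH.
DDX21: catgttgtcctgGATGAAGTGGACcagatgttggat
DDX50: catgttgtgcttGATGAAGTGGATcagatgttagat
DDX3X: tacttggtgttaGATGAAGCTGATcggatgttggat
DHX9: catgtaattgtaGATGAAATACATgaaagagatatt
DDX11: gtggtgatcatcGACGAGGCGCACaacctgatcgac
DHX37: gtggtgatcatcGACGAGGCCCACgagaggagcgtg
DDX19A: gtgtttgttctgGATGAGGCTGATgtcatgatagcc
DDX19B: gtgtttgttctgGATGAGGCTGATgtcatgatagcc
The windows lie at chr10:68967116-68967151 (plus strand) for DDX21, chr10:68913489-68913524 (plus) for DDX50, chrX:41345181-41345216 (plus) for DDX3X and chr1:182867005-182867040 (plus) for DHX9. Those of DDX11, DHX37, DDX19A and DDX19B lie at chr12:31091794-31091829 (plus), chr12:124971356-124971391 (minus), chr16:70366189-70366224 (plus) and chr16:70329396-70329431 (plus).

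The name and the spelled motif did not always match. Of the 36 DDX genes, 30 spell DEAD at this site, and of the 14 DHX genes with a site found, 8 spell DEAH. DDX11 spells DEAH, and the other 11 sites carry a variant, among them those of DDX21, DDX50, DDX39A, DDX39B and DHX9. No site was found in DHX32 by a search that, in DHX genes, allowed a change of Ala alone. Counted from 1 at the 5′ end of the window, DDX21 and DDX50 differ at 4 of 36 bases, C9G, G12T, C24T and G33A, with the base of DDX21 first. DDX19A and DDX19B are identical over all 36 bases.

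The library totals ran from 15175619 to 17329443 counts. ADAR, the knockdown target, was measured at 456, 432 and 444 CPM (counts per-million on scaled library sizes) in control and at 92.8, 95.7 and 77.6 CPM in siADAR1 (log2 fold change -2.32 ± 0.09, SE). The 2 libraries numbered 1 stood apart from the others of their group: the chi-square per degree of freedom between libraries was 14.1 to 18.0 for pairs that held one of them and 3.95 and 5.02 for the others. Of 8 squamous markers, 5 had a mean above 1 FPKM (fragments per kilobase per-million), with KRT14, SOX2 and PKP1 below it. Their summed level was 162 to 225 FPKM in control and 130 to 136 FPKM in siADAR1. SFN made up most of that sum, at a mean of 145 FPKM in control and 90.5 FPKM in siADAR1, and KRT5 and KRT6A were also lower. TP63 went the other way, from 16.5 to 23.0 FPKM, and DSG3 from 4.04 to 11.6 FPKM. Of 4 leukocyte and 3 endothelial markers 0 reached 1 FPKM, and of 4 fibroblast markers 1 did (COL1A1), with sums of 1.26 to 2.01 FPKM in control and 2.05 to 2.65 FPKM in siADAR1. The part of these markers in the helicase values was not tested.

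Of the 51 helicases, 48 had enough counts to be tested. DDX3Y, DDX4 and DDX25 did not, with at most 2 counts in any library. At an adjusted p below 0.05 (edgeR quasi-likelihood test, Benjamini-Hochberg over 15294 genes), 25 of the 48 changed, 52.1%, against a background of 51.0% of all tested genes. Of these, 9 were higher in siADAR1, 18.8% against 26.0% of all tested genes. Another 16 were lower, 33.3% against 25.0%. The share of helicases that changed therefore lay near the general share. For 27 of the 48 the CPM of the 2 groups was without overlap, 56.3%, against 60.3% of all tested genes. All 25 called members were among these 27, with the uncalled genes DHX36 and DDX43 the remaining 2. In bulk RNA, fewer cells of a type and less RNA per cell cannot be told apart.

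The changes were small. The median size of the log2 fold change, whatever its sign, was 0.27 over the helicases and 0.44 over all tested genes. These sets differ in level: 13 of the 48 helicases had a mean under 50 CPM, against 10543 of the 15294 tested genes. Among the helicases, 8 passed 1.5-fold with a call, 4 in each direction, where 31.5% of all tested genes did so. DDX21 alone passed 2-fold, where 14.8% of all tested genes did so with a call. The signed median was -0.07, against 0.00 over all tested genes. With library totals alone, the median of all genes rose by 0.12 and the signed median of the helicases turned to 0.04. Under that scaling 15 helicases were higher and 7 lower, in place of 9 and 16. Of all tested genes, 32.0% were then higher and 18.9% lower. Relative to the median of all genes, the helicases lay at -0.08 under both scalings. The number higher was 5 without siADAR1 replicate 1, and the number lower was 10 without siADAR1 replicate 2. The shares of all tested genes called in those fits are not given here.

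**Figure D1:**
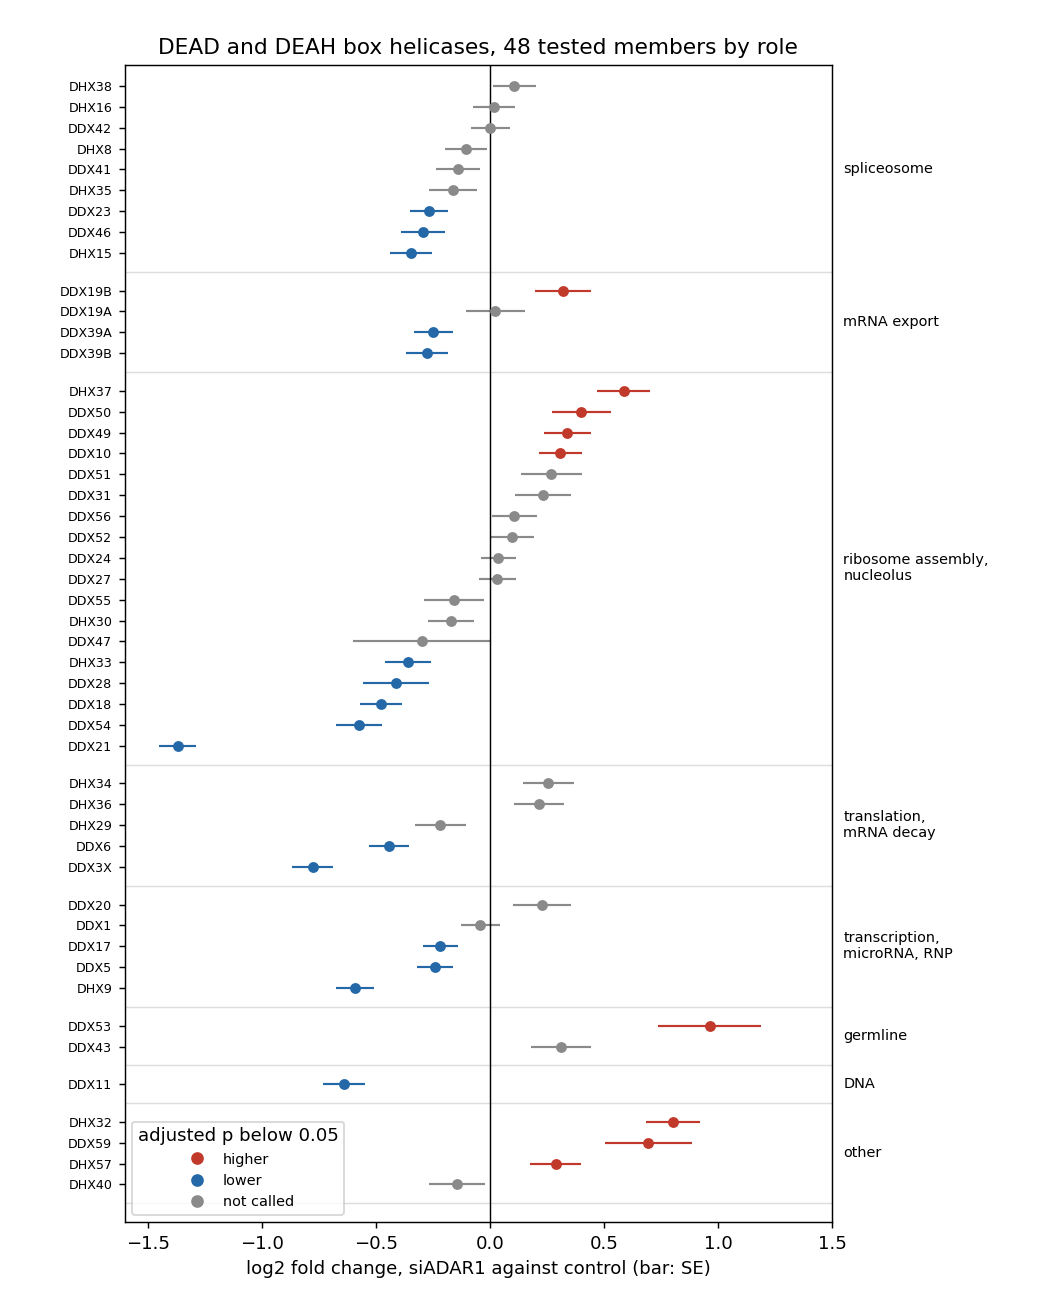
Log2 fold change (siADAR1 against control, with SE) of the 48 tested helicases, grouped by role. Points left of 0 are lower in siADAR1; DDX21 lies farthest to the left at -1.37 and DDX53 farthest to the right at 0.96.

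The helicases of ribosome assembly and the nucleolus were the largest group, with 18 members. Of these 5 fell (27.8%, against 25.0% of all tested genes), 4 rose (22.2%, against 26.0%) and 9 did not pass, so both shares lay near the general ones. The log2 fold changes ran from -1.37 to 0.59. DDX21 (ENSG00000165732, chr10:68956128-68985073, plus strand), a nucleolar protein that couples transcription by RNA polymerase I to ribosomal RNA processing, was measured at 253, 261 and 263 CPM in control. In siADAR1 it was measured at 100.3, 95.7 and 105 CPM, so that no siADAR1 library came near a control library. The mean went from 259 ± 5.55 to 100.2 ± 4.51 CPM (SD, n = 3 each), 38.7% of control, with a log2 fold change of -1.37 ± 0.08 (SE) and an adjusted p of 1.27e-07 in edgeR's quasi-likelihood test.

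DDX54, a nucleolar protein also known to repress nuclear receptors, read 154, 140.4 and 127 CPM in control and 99.5, 99.1 and 84.7 CPM in siADAR1. It fell by 0.57 ± 0.10 (SE) on the log2 scale (edgeR adjusted p = 3.94e-04). DDX18, needed for large ribosomal subunit assembly, read 149, 179 and 153 CPM in control and 111, 117 and 118 CPM in siADAR1, 71.9% of control. In both genes the lowest control library lay above the highest siADAR1 library. DHX33, which takes part in ribosomal RNA transcription, fell by 0.36 ± 0.10 (SE) on the log2 scale (edgeR adjusted p = 0.0101). DDX28, which assembles the mitochondrial ribosome, fell by 0.41 ± 0.14 (edgeR adjusted p = 0.0281). The DDX28 call was lost without control replicate 2 or 3 or siADAR1 replicate 1 or 2, with an adjusted p of up to 0.0981. With library totals alone the adjusted p was 0.0632 for DHX33 and 0.102 for DDX28.

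Other members of the same group rose. DHX37, which releases the U3 small nucleolar RNA from the small-subunit precursor, read 93.3, 73.8 and 81.3 CPM in control and 141, 125 and 107 CPM in siADAR1. Its mean rose 1.50-fold, with a log2 fold change of 0.59 ± 0.12 (SE) and an edgeR adjusted p of 9.56e-04. The siADAR1 libraries lay above every control library. DDX49 read 52.7, 54.6 and 45.8 CPM in control and 69.9, 63.5 and 60.4 CPM in siADAR1, a log2 fold change of 0.34 ± 0.10 (edgeR adjusted p = 0.0154). The DDX49 call was lost without siADAR1 replicate 1 and without control replicate 3 (adjusted p of up to 0.0884). DDX10, the counterpart of a yeast factor of the small subunit, rose by 0.31 ± 0.09 (edgeR adjusted p = 0.0149).

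DHX30, an RNA granule protein of mitochondria, read 208, 162 and 177 CPM in control and 172, 164 and 150.0 CPM in siADAR1, and the groups overlapped (log2 fold change -0.17 ± 0.10, SE). DDX24, DDX27, DDX31, DDX51, DDX52, DDX55 and DDX56 did not pass either, with log2 fold changes from -0.16 (DDX55) to 0.27 (DDX51). DDX47 had the lowest level of the tested helicases, 2.60, 3.30 and 4.60 CPM in control and 2.37, 2.36 and 3.81 CPM in siADAR1. All of its coding bases also lie in exons of APOLD1 on the same strand, which had 896 counts over the 6 libraries. The level of DDX47 is therefore uncertain.

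DDX50 (ENSG00000107625, chr10:68901278-68946847, plus strand) encodes a nucleolar paralog of DDX21, and its annotated end lies 9280 bases before the start of DDX21. It went the other way from its neighbour. DDX50 read 25.9, 30.3 and 25.0 CPM in control and 41.1, 33.7 and 32.4 CPM in siADAR1, and each siADAR1 library lay above each control library. It rose by 0.40 ± 0.13 (SE) on the log2 scale (edgeR adjusted p = 0.0183). The call was lost without control replicate 3 (adjusted p 0.0835), without siADAR1 replicate 1 and without both libraries numbered 1.

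The ratio of DDX21 to DDX50 within a library removes the scaling of that library. On the log2 CPM scale it was 3.28, 3.11 and 3.39 in control and 1.29, 1.50 and 1.69 in siADAR1, with no overlap. The mean went from 3.26 ± 0.14 to 1.49 ± 0.20 (SD, n = 3 each), a difference of -1.77. The exact two-sided permutation test gave p = 0.1, the smallest that 3 against 3 allows, and 0.2 after adjustment over the 4 pairs compared. Per length of all annotated exons, the ratio of the mean FPKM of DDX21 to that of DDX50 was 5.13 in control and 1.50 in siADAR1.

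**Figure D2:**
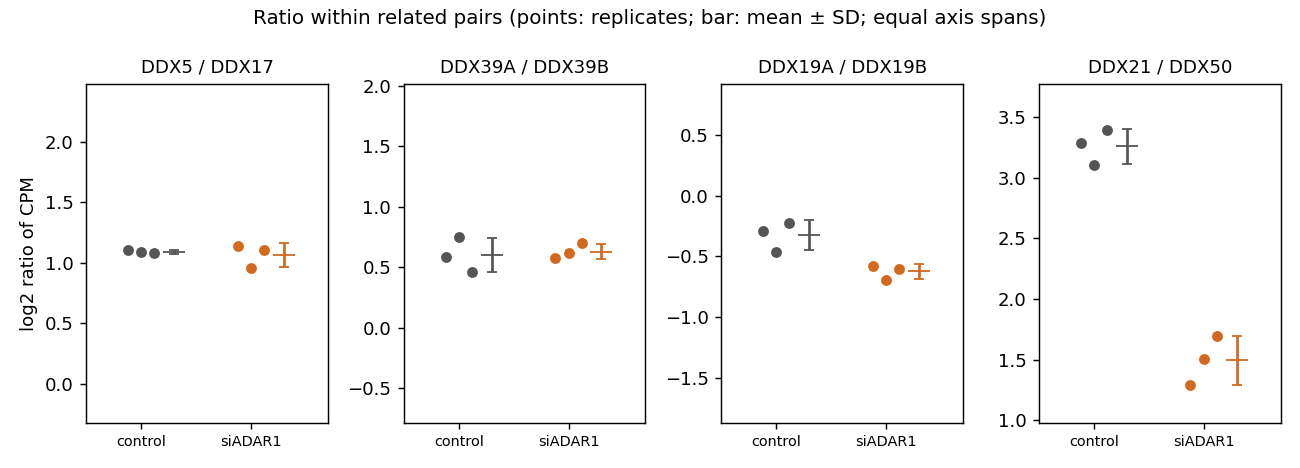
Log2 ratio of CPM within each library for 4 pairs of paralogs, with control and siADAR1 libraries as points and the group mean ± SD as bars. The DDX21 to DDX50 ratio separates the groups by 1.77, and the DDX5 to DDX17 and DDX39A to DDX39B ratios overlap.

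Of the 9 spliceosome helicases, which drive the rearrangements of splicing, 3 fell, 0 rose and 6 did not pass. The share that fell, 33.3%, compares with 25.0% of all tested genes, and the 0 that rose with 26.0%. All 3 that fell had a mean of at least 100 CPM, a level at which 44.7% of all tested genes fell and 21.2% rose. DHX15, which takes apart spent spliceosomes, read 229, 264 and 281 CPM in control and 191, 203 and 214 CPM in siADAR1. It fell by 0.35 ± 0.09 (SE) on the log2 scale (edgeR adjusted p = 0.00685), and each siADAR1 library lay below each control library. DDX46, which acts at branch-site recognition, fell by 0.29 ± 0.10, and DDX23, of the U5 snRNP, fell by 0.27 ± 0.08 on the log2 scale (edgeR adjusted p = 0.0236 and 0.0155). The DDX46 call was lost without control replicate 2 or 3 or siADAR1 replicate 1 or 2, with an adjusted p of up to 0.106. With library totals alone 0 of the 3 calls were kept, with adjusted p of 0.0507 for DHX15, 0.138 for DDX23 and 0.151 for DDX46. Those not called were DHX8, DHX16, DHX35, DHX38, DDX41 and DDX42, with log2 fold changes from -0.16 to 0.11.

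In mRNA export, DDX39A and DDX39B encode closely related proteins of the TREX complex, which loads export factors on mRNA. DDX39A read 171, 165 and 150.3 CPM in control and 139, 134 and 136 CPM in siADAR1. DDX39B read 114, 97.9 and 109 CPM in control and 93.7, 87.2 and 84.0 CPM in siADAR1. Both fell without overlap, by 0.25 ± 0.08 and 0.27 ± 0.09 (SE) on the log2 scale (edgeR adjusted p = 0.0250 and 0.0240). Each call was lost when siADAR1 replicate 2 or 3 was left out, that of DDX39A also without control replicate 2 and that of DDX39B without control replicate 3 (adjusted p of up to 0.0862 and 0.112). With library totals alone neither passed, with adjusted p of 0.211 and 0.177. Their log2 ratio was 0.60 ± 0.14 in control and 0.63 ± 0.06 in siADAR1 (SD, n = 3 each), a difference of 0.03 (exact permutation p = 0.9, two-sided, adjusted p = 0.9).

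DDX19A and DDX19B, export factors of the nuclear pore, differed in call. DDX19A read 18.5, 17.03 and 16.4 CPM in control and 18.8, 16.7 and 17.3 CPM in siADAR1, with overlapping groups and a log2 fold change of 0.02 ± 0.13 (SE). DDX19B read 22.7, 23.4 and 19.1 CPM in control and 28.0, 27.1 and 26.3 CPM in siADAR1, a log2 fold change of 0.32 ± 0.12 (edgeR adjusted p = 0.0435). That call was lost with any single library other than control replicate 1 left out, with an adjusted p of up to 0.191. The log2 ratio of DDX19A to DDX19B went from -0.32 ± 0.12 to -0.62 ± 0.06 (SD, n = 3 each), with no overlap (exact permutation p = 0.1, the smallest possible, adjusted p = 0.2). Reads may be split between these genes, whose motif windows printed above are identical. Of the coding bases of DDX19A 81.0%, and of DDX19B 39.3%, are also exonic in other annotated genes, so both levels are uncertain. The same holds for DDX39B, with 85.8% shared, the largest part with a readthrough gene that had 0 counts.

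Among the helicases of translation and mRNA decay in the cytoplasm, 5 were tested. Of these 2 fell (40%, against 25.0% of all tested genes), 0 rose (against 26.0%) and 3 did not pass. Both that fell had a mean of at least 100 CPM, a level at which 44.7% of all tested genes fell and 21.2% rose. DDX3X (ENSG00000215301, chrX:41333284-41364472, plus strand), which helps translation start on structured leaders, read 501, 541 and 593 CPM in control and 288, 331 and 334 CPM in siADAR1. The lowest control library lay far above the highest siADAR1 library. It fell to 58.4% of control, a log2 fold change of -0.78 ± 0.09 (SE; edgeR adjusted p = 1.57e-05). DDX6, which represses translation and activates decapping in P-bodies, read 151, 159 and 162 CPM in control and 106, 122 and 119.8 CPM in siADAR1, a fall to 73.5% of control (log2 fold change -0.44 ± 0.09).

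DHX36, which unwinds G-quadruplexes, read 109.9, 149 and 147 CPM in control and 158, 153 and 159 CPM in siADAR1. The groups did not overlap, but control replicate 1 lay far below the other controls and the gene did not pass (log2 fold change 0.21 ± 0.11, SE). DHX29, which helps the small ribosomal subunit scan, and DHX34, of nonsense-mediated decay, did not pass at -0.22 ± 0.11 and 0.26 ± 0.11.

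Of 5 helicases of transcription, microRNA processing and RNP assembly, 3 fell (60%, against 25.0% of all tested genes) and 0 rose (against 26.0%). All 3 that fell had a mean of at least 100 CPM, a level at which 44.7% of all tested genes fell and 21.2% rose. DHX9 (ENSG00000135829, chr1:182839369-182887751, plus strand) unwinds long double-stranded RNA, such as that of inverted Alu repeats, and is known to bind ADAR1. It read 329, 362 and 372 CPM in control and 225, 233 and 248 CPM in siADAR1, without overlap. It fell to 66.4% of control, a log2 fold change of -0.59 ± 0.08 (SE; edgeR adjusted p = 6.82e-05).

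DDX5 and DDX17, paralogous coactivators of transcription and partners of the microRNA-processing nuclease Drosha, had smaller falls. DDX5 read 693, 659 and 644 CPM in control and 569, 523 and 597 CPM in siADAR1, a log2 fold change of -0.24 ± 0.08 (SE, edgeR adjusted p = 0.0206). DDX17 read 321, 311 and 305 CPM in control and 259, 269.7 and 277 CPM in siADAR1, a log2 fold change of -0.22 ± 0.08 (edgeR adjusted p = 0.0285). Each pair of groups was without overlap, but both calls were lost without control replicate 2 or siADAR1 replicate 2, and that of DDX17 without siADAR1 replicate 3, with adjusted p of up to 0.104 and 0.0759. With library totals alone the adjusted p was 0.197 for DDX5 and 0.275 for DDX17. Their log2 ratio was 1.09 ± 0.02 in control and 1.07 ± 0.10 in siADAR1 (SD, n = 3 each; exact permutation p = 0.9, adjusted p = 0.9).

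DDX1, a member of the tRNA ligase complex, read 163, 185 and 188 CPM in control and 166, 176 and 179 CPM in siADAR1. The groups overlapped, with a log2 fold change of -0.04 ± 0.09 (SE) that turned to 0.08 with library totals alone. DDX20, a partner of the SMN protein in snRNP assembly, did not pass at 0.23 ± 0.13.

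DDX11 (chr12:31073845-31104791, plus strand), a DNA helicase of sister-chromatid cohesion, read 139, 132 and 139 CPM in control and 78.8, 92.4 and 91.9 CPM in siADAR1. Without overlap, it fell to 64.3% of control, with a log2 fold change of -0.64 ± 0.09 (SE) and an edgeR adjusted p of 8.27e-05. DDX12P, an unprocessed pseudogene copy of DDX11 that could take its reads, had 1279 counts in control and 932 in siADAR1 and also fell (log2 fold change -0.53 ± 0.12, edgeR adjusted p = 0.00318). The level of DDX11 is uncertain to that extent.

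**Figure D3:**
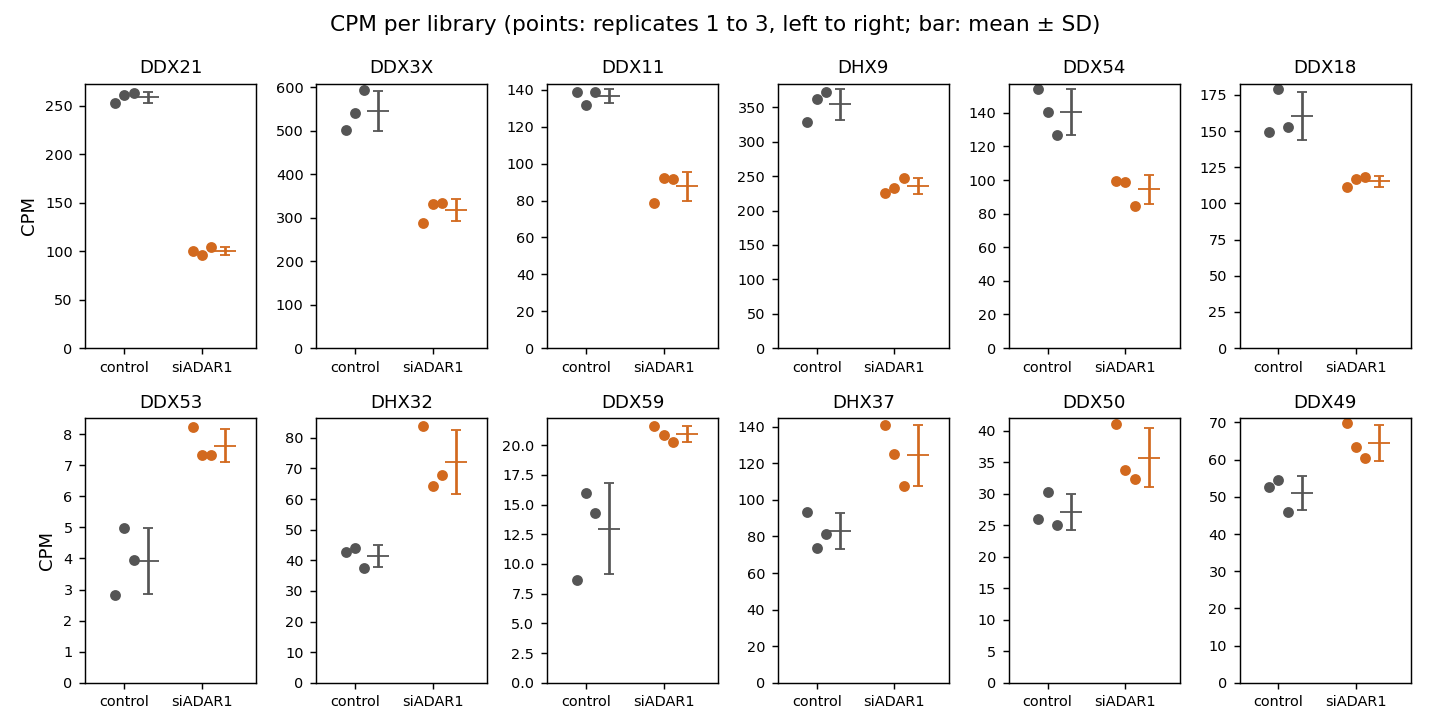
CPM in each of the 6 libraries (points, with the mean ± SD as bars) for the 6 helicases with the largest called fall and the 6 with the largest called rise. In each of the 12 the 3 control libraries and the 3 siADAR1 libraries do not overlap.

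The germline helicases and those with less defined roles held the largest relative rises. DDX53 (chrX:22999961-23003589, plus strand), a cancer-testis antigen, read 2.84, 4.98 and 3.94 CPM in control and 8.23, 7.32 and 7.31 CPM in siADAR1, 1.95-fold higher. The log2 fold change of DDX53 was 0.96 ± 0.22 (SE; edgeR adjusted p = 0.00300), at a level among the lowest of the tested helicases. DDX43, also a cancer-testis antigen, read 17.8, 18.3 and 20.8 CPM in control and 25.3, 20.9 and 24.5 CPM in siADAR1. Its groups did not overlap, but it did not pass (edgeR adjusted p = 0.0615).

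DHX32 (ENSG00000089876, chr10:125836337-125896436, minus strand), whose function is poorly defined, read 42.7, 44.0 and 37.4 CPM in control and 84.0, 64.2 and 68.0 CPM in siADAR1. It rose 1.74-fold, with a log2 fold change of 0.80 ± 0.12 (SE) and an edgeR adjusted p of 1.14e-04. Of its coding bases 8.61% lie in exons of BCCIP on the opposite strand, and the protocol names no step that keeps strand. The same limit holds for other members whose largest partner is on the opposite strand. Among them are DDX28 (15.2% of coding bases shared, DUS2), DDX43 (21.0%, OOEP the largest partner) and DDX54 (8.81%, CFAP73). DDX59, mutated in an orofaciodigital syndrome, read 8.64, 16.0 and 14.3 CPM in control and 21.6, 20.9 and 20.3 CPM in siADAR1. It rose 1.62-fold (log2 fold change 0.70 ± 0.19, edgeR adjusted p = 0.00784), and control replicate 1 lay below the other controls. DHX57 rose by 0.29 ± 0.11 (edgeR adjusted p = 0.0453). The DHX57 call was lost when any library other than control replicate 3 was left out (adjusted p of up to 0.151) and when both libraries numbered 1 were. DHX40 did not pass.

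Level and change went together among the helicases. Of the 21 with a mean of at least 100 CPM over all libraries, 13 fell and 1, DHX37, rose, and their median log2 fold change was -0.25. Among all 2285 tested genes at that level, 44.7% fell and 21.2% rose, with a median of -0.17. Of the 13 helicases under 50 CPM, 1 fell (7.69%) and 4 rose (30.8%), with a median of 0.23. Over the 10543 genes at that level 19.1% fell and 26.7% rose, with a median of 0.07, so the share that rose was near the general one. Over the 48 helicases, the Spearman correlation of mean level over all libraries and log2 fold change was -0.50 and the Pearson correlation -0.46. Over all tested genes the Spearman value was -0.13. These sets cover unlike levels: 13 of the 48 helicases lay under 50 CPM, against 10543 of the 15294 tested genes. These correlations are across genes of the same 6 libraries, and genes are not independent replicates.

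**Figure D4:**
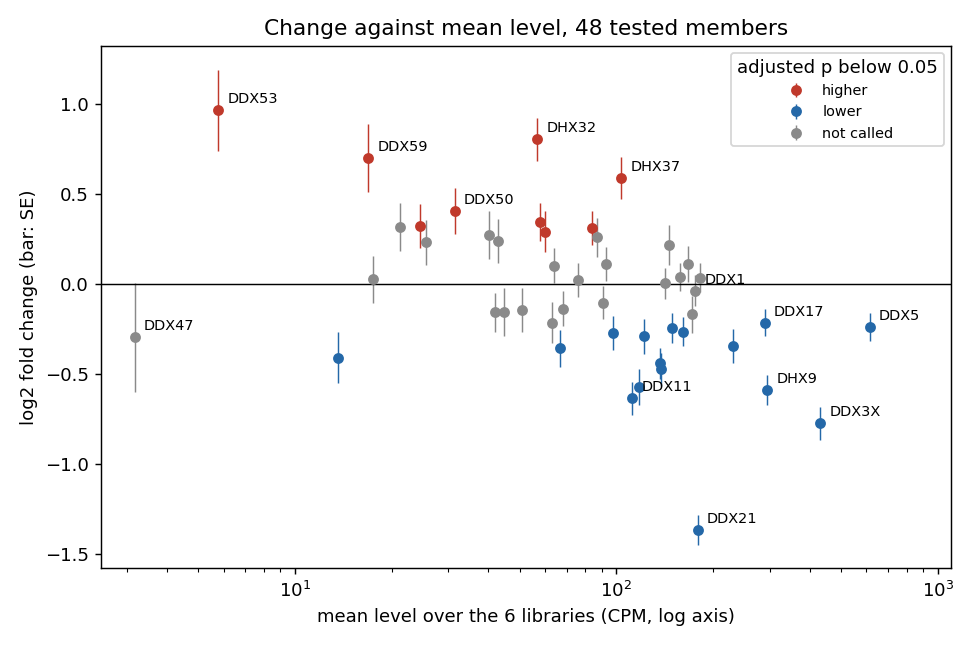
Log2 fold change of each tested helicase against its mean CPM over the 6 libraries (log axis), coloured by call. Of the 21 helicases at 100 CPM or more, 13 are called lower and 1 higher. Below 50 CPM, 4 are called higher and 1 lower. With library totals alone, 7 helicases of any level are called lower and 15 higher. Of all tested genes, 18.9% are then lower and 32.0% higher.

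Summed over the members, the helicases took 5969, 5970 and 6017 CPM in control and 5192, 5076 and 5185 CPM in siADAR1. The sum fell by 13.9% (exact permutation p = 0.1, two-sided, the smallest that 3 against 3 allows). DDX3X, DDX21, DHX9 and DDX5 together fell by 607 CPM. The difference of 834 CPM over all members is a net one, in which 24 members were higher in siADAR1 by any amount. Without any composition scaling, the members took 0.570% to 0.578% of the counts in control and 0.525% to 0.545% in siADAR1.

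Per length, in the deposited FPKM, DDX5 was the most abundant helicase in control at 89.2 ± 3.23 FPKM (SD, n = 3). DHX9 followed at 62.2 ± 4.01, then DDX21 at 51.0 ± 1.15, DDX1 at 46.2 ± 3.58 and DDX39A at 41.8 ± 2.73. The median of the tested helicases was 13.8 FPKM. The length used is that of all annotated exons of a gene together, so this order depends on the annotation. DDX3X, with 15892 such bases, had 34.0 FPKM in control. By CPM it stood at 545 in control, against 665 for DDX5 and 354 for DHX9. DDX1 and DDX39A lay within the sum of their SDs of each other, while DDX5, DHX9 and DDX21 were separated by more. Of the 10 with the highest FPKM in control, 7 fell and 0 rose. All 10 had a mean of at least 100 CPM, a level at which 44.7% of all tested genes fell and 21.2% rose. By library totals alone, 3 of the 7 calls were kept, those of DDX21, DDX3X and DHX9. In siADAR1 DDX21 stood at 19.7 ± 0.849 FPKM, below DDX1 at 44.8 ± 1.66 and DHX9 at 41.1 ± 1.96.

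Helicases of the same superfamily with other names moved in both directions. EIF4A3, of the exon junction complex, fell by 0.57 ± 0.10 (SE) on the log2 scale (edgeR adjusted p = 2.98e-04). YTHDC2, a reader of methylated adenosine, rose by 0.58 ± 0.12 (edgeR adjusted p = 0.00118), and EIF4A2, an initiation factor, rose by 0.33 ± 0.08 (edgeR adjusted p = 0.00510). EIF4A1 and DQX1 did not pass, and TDRD9 was not tested. EIF4A1 was measured at only 8.21 CPM in control, and 86.8% of its coding bases are also exonic in other annotated genes, of which SENP3-EIF4A1 shares the most.

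Partner proteins of these helicases were counted from lists chosen by name, and each count is set against the 26.0% higher and 25.0% lower among all tested genes. Of 23 G-patch proteins, which activate DEAH box helicases, 4 fell (17.4%) and 7 rose (30.4%), near the general shares. Their median log2 fold change was 0.14, or 0.25 by library totals alone and 0.08 without siADAR1 replicate 1. GPATCH3 rose by 0.80 ± 0.13 (SE) and CHERP fell by 0.67 ± 0.10 (edgeR adjusted p = 2.23e-04 and 1.63e-04). Of 14 MIF4G-domain proteins and other cofactors of DEAD box helicases, 7 fell (50%) and 4 rose (28.6%). The median was -0.26, or -0.15 by library totals alone. The list holds inhibitors as well as activators. EIF4G1, the scaffold that holds eIF4A at the mRNA cap, fell by 0.82 ± 0.08, and EIF4H, a stimulator of eIF4A, fell by 0.55 ± 0.08 (edgeR adjusted p = 3.62e-06 and 6.86e-05). PDCD4, an inhibitor of eIF4A, fell by 0.49 ± 0.13 (edgeR adjusted p = 0.00816), and CWC22, which holds EIF4A3 inactive before it joins the spliceosome, rose by 0.67 ± 0.14 (edgeR adjusted p = 0.00156).

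In the machines on which many members work, more genes fell than rose, where 25.0% of all tested genes fell and 26.0% rose, and 44.7% and 21.2% of those at 100 CPM or more. Of 30 spliceosome core genes without helicases of these names, 16 fell (53.3%) and 2 rose (6.67%). The median was -0.33, or -0.21 by library totals alone. SF3B4, of the U2 snRNP, fell by 0.79 ± 0.09 (SE), and EFTUD2, the GTPase of the U5 snRNP, fell by 0.83 ± 0.10 (edgeR adjusted p = 1.63e-05 and 1.99e-05). Of 40 other ribosome assembly factors, 20 fell (50%) and 4 rose (10%), and their median was -0.26, or -0.14 by library totals alone. BYSL and NIP7, factors of the small and the large subunit, fell by 1.32 ± 0.10 and 1.33 ± 0.11 (edgeR adjusted p = 8.28e-07 and 8.82e-07). The number of assembly factors that rose was 8 with library totals alone and 2 without control replicate 2, control replicate 3 or siADAR1 replicate 1. The number of G-patch proteins that fell was 1 with library totals alone and 2 without control replicate 3 or siADAR1 replicate 3. With library totals alone, 32.0% of all tested genes rose and 18.9% fell.

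Over 18 alternative settings, 8 of the 25 calls were kept in each. The 7 lower ones were DDX21, DDX3X, DDX11, DHX9, DDX54, DDX18 and DDX6, and the 1 higher one was DHX32. Of the other 17 calls, all kept their direction in each setting. On FPKM without a filter on low values, 9 helicases were lower and 1 higher. That setting kept the 28008 genes with 0 counts in all libraries. The higher calls of DDX10, DDX53, DDX59 and DHX37 were lost in it alone, and the lower call of DDX23 with library totals alone.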

How the data were processed

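Polyadenylated RNA of 6 KYSE410 samples was sequenced, and the sample titles gave group and replicate number; the labels give every sample the same batch value. Per the file headers, the authors deposited a count per gene for each library; the values are whole and unscaled. The deposited FPKM values were set by the authors with a library factor of their own. HISAT2 2.0.5 is named in the submitters' processing notes; the counting tool is not given in the sources used here. Coordinates of all 58735 genes equal those of GENCODE release 29 on GRCh38.

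Counts were fitted with edgeR 4.0.16 in R 4.3.3: filterByExpr with a minimum count of 10 (15294 genes left), TMM scaling (factors 0.957 to 0.963 in control, 1.04 to 1.05 in siADAR1) and the robust quasi-likelihood F test, two-sided, with a Benjamini-Hochberg threshold of 0.05 over all tested genes. The SE is the size of the log2 fold change over the square root of F. CPM were computed on TMM-scaled library sizes. Alternatives were relative log expression size factors, library totals alone, DESeq2 1.42.0, limma 3.58.1 (voom, and trend on FPKM with a pseudocount of 0.1 or 1 and a minimum of 0.5, or no filter), a minimum count of 50 or no filter, a replicate block, protein-coding genes alone, leaving out each library, and leaving out both numbered 1.

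The members and lists were chosen with earlier results of these data known. Named genes are ADAR, any tested member, members not tested, and 2 genes of smallest p in each other list, with EIF4A2, EIF4A1, DQX1, PDCD4, CWC22 and DDX12P named after their values were seen. Values per library are given for the 6 largest called rises and falls and for DHX9, DDX5, DDX17, DDX3X, DDX6, DDX21, DHX15, DHX30, DHX36, DDX1, DDX39A, DDX39B, DDX19A, DDX19B and DDX50; DDX43 and DDX47 were added after their values were seen. Members were placed in role lists by textbook function. On data simulated from these libraries (15294 genes, 200 changed, 5 simulations) the test recovered 43.5% of genes changed 1.5-fold, 72.4% at 2-fold and 93.5% at 4-fold, and 9.47% of calls were false. That false share lay above the threshold of 0.05. The simulation changed far fewer genes than the 51.0% called in the data, so these shares do not describe the test on the data. The motif site was sought in each GENCODE coding sequence as 4 codons for DEAD (DDX genes) or DEAH (DHX genes) behind 2 hydrophobic residues. Where that was absent, any residue was allowed in place of Ala, within a set distance downstream of a Gly-Lys-Thr or Gly-Lys-Ser site. In DDX genes the site could then end in Asp or His. Where no such site was found in a DDX gene either, DEAH behind 2 hydrophobic residues was accepted at any position. Other variants could not be found. Reads carry no molecular identifiers, and no strand-keeping step is named.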

Additional observations from a re-analysis of the deposited data

How the results depend on the processing

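Library totals alone moved most values: 15 helicases were higher and 7 lower, with a median log2 fold change of 0.0446, the one reversed median. Of all tested genes, 32.0% were higher and 18.9% lower under that scaling. G-patch proteins then had a median of 0.254 and 1 lower, cofactors -0.146, spliceosome core genes -0.215 and ribosome assembly factors -0.143 with 8 higher. FPKM without a filter gave 1 helicase higher and 9 lower, and 0 helicases of other names, 4 G-patch proteins, 1 cofactor, 1 spliceosome gene and 1 assembly factor higher. With a minimum count of 50 the helicase median was -0.0263. Without both libraries numbered 1, 10 helicases were higher and 18 lower, where 27.1% of all tested genes were higher and 26.7% lower. The medians were then -0.316 for cofactors and -0.260 for spliceosome genes.

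With 1 library left out in turn, 5 to 11 helicases were higher and 10 to 18 lower, with a median of -0.0736 to -0.0249. The shares of all tested genes called in these fits are not given here. G-patch proteins had 2 to 4 lower with a median of 0.0828 to 0.181, and assembly factors 2 to 5 higher with a median of -0.323 to -0.260. The median was -0.332 to -0.226 for cofactors and -0.391 to -0.290 for spliceosome genes. The difference of DDX5 and DDX17 ran from -0.0602 to 0.0307 (reversed without siADAR1 replicate 2), and that of DDX39A and DDX39B from -0.0404 to 0.103 (reversed without control replicate 3, and at -0.00569 without siADAR1 replicate 3).

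Of the uncalled helicases, 6 changed sign, at sizes under 0.1. With library totals alone DDX1 was at 0.0764 and DHX8 at 0.0127. DDX42 was at -8.38e-04 with DESeq2, -9.38e-04 with relative log expression factors, -0.00192 without a count filter, -0.00214 and -0.00206 on FPKM (pseudocount 0.1, and 1 with or without a filter) and -0.0905 without both libraries numbered 1. With 1 library left out, DDX42 ran from -0.0587 to 0.0309 (-0.0409 for its other reversal), DDX19A from -0.0269 to 0.0652 (-0.0248), DDX55 from -0.247 to 0.00184 and DHX16 from -0.0350 to 0.0660 (-7.12e-04 and -0.0170). The cause was not tested.

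Same-numbered libraries deviated together by correlations of 0.251, 0.0844 and 0.106 over all tested genes. Over the 48 helicases these were 0.361, 0.0214 and 0.650. For replicates 1 and 3 the same number gave the best match. Control replicate 2 correlated slightly better with siADAR1 replicate 3 (0.0917 over all tested genes). The main fit did not pair the samples, and whether the numbers pair them was not settled. With the replicate block 13 helicases were higher and 16 lower, where 28.7% of all tested genes were higher and 27.4% lower. In all, 8582 genes were called, against 7804 in the main fit. Of 23 uncalled helicases, 8 were called in at least 1 of the 18 settings. The 3 libraries a group and totals of 15175619 to 17329443 counts limit what can be called at changes under 1.5-fold.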
